A study of Mus musculus with 10 samples.

Results

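Leukemia inhibitory factor (LIF), endothelin-2, basic fibroblast growth factor and the STAT3 pathway that connects them were described in mouse retina through 10 genes: Lif, Lifr, Cntfr, Il6st, Osmr, Stat3, Socs3, Edn2, Ednrb and Fgf2. They were chosen by symbol from the 19999 genes of a count table, all 10 were in it and all 10 passed the filter on low counts. The table covers retina of BALB/c mice, an albino strain, in 5 libraries labelled as a model of damage by light (LD-1 to LD-5) and 5 control libraries (CTRL-1 to CTRL-5). Light damage and control libraries alike are labelled vehicle, and the treatment A74 named in the design text was not analysed here. The labels give neither light dose nor time after exposure, and neither age nor sex. The labels do not tie libraries to separate animals, and the spread behind each p-value is that between libraries, which may be technical.

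In injured mouse retina LIF is known to be made by a subset of Müller glia, the glial cells that span the retina. It binds the LIF receptor paired with gp130, the shared receptor subunit of the interleukin-6 family, and JAK kinases then phosphorylate the transcription factor STAT3. STAT3 induces its own inhibitor SOCS3, and in mouse models of photoreceptor loss LIF is needed for endothelin-2 to rise in photoreceptors and for basic fibroblast growth factor to rise, both linked with photoreceptor survival.

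Library totals lay between 17900227 and 20337329 counts in light damage and between 14652535 and 20699236 counts in control. All 12 rod markers listed were present in every library, with summed levels of 60330 to 84240 CPM (counts scaled to library size by the TMM method) in light damage and 64580 to 105700 CPM in control. Libraries stood apart in different ways. LD-1 and LD-2 had 17174 and 20414 counts of Xist, a noncoding RNA of female cells, against 1 to 9 in the other libraries, and summed levels of lens genes of 7520 and 4015 CPM against at most 118 CPM elsewhere. CTRL-3 stood apart in the genes described here, with the highest level of all 10 libraries for 6 of the 10 genes.

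Between light damage and control retina a pair of receptor genes of the pathway passed the test, and its ligands, its transcription factor and its inhibitor did not. Lifr fell and Cntfr rose, with log2 fold changes of -0.27 and 0.26. The groups of the other 8 genes overlapped, and 6 of them (Lif, Osmr, Stat3, Socs3, Edn2 and Fgf2) varied widely between libraries of the same group. Calls were made at a Benjamini-Hochberg adjusted p under 0.05 in the quasi-likelihood test of edgeR. By it 1 of the 10 genes was higher in light damage and 1 lower. Over all 16852 genes tested 13.2% were called, 5.32% higher and 7.85% lower, so the count of 2 in 10 is not in itself a result about these genes. Without LD-1 and LD-2, 2.34% were called, 0.782% higher and 1.55% lower. The median log2 fold change was 0.01 over the 10 genes and 0.0016 over all genes tested.

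The start regions of 3 genes are shown because these genes varied together between libraries and their windows held 1 of the 2 motifs searched. Each window runs from 250 bases before to 50 bases after the annotated start, from RefSeq on build GRCm38.p6, and is written 5′ to 3′ along the gene. Capitals mark TTCNNNGAA, the core motif bound by STAT factors, in Socs3, and TGANTCA, the core motif of AP-1, in Lif and Osmr.
Socs3 (chr11:117969317-117969616, minus strand): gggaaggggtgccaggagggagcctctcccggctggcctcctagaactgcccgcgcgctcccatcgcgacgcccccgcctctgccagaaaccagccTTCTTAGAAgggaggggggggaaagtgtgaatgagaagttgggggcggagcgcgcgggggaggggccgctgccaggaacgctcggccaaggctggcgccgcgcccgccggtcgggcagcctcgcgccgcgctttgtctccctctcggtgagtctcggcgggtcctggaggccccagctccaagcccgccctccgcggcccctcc
Lif (chr11:4257318-4257617, plus strand): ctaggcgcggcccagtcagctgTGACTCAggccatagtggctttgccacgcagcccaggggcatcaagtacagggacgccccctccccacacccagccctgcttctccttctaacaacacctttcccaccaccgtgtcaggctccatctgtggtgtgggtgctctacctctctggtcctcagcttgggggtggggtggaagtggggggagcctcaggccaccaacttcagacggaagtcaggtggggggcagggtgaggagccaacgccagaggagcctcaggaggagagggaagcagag
Osmr (chr15:6874264-6874563, minus strand): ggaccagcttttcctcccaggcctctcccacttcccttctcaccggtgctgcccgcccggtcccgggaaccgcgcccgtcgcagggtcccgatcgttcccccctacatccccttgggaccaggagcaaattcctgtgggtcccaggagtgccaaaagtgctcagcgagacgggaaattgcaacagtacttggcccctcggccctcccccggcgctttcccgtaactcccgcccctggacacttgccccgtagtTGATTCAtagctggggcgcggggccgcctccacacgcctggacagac
The match in Socs3 lay at bases -154 to -146 from the start, that in Lif at -228 to -222, and that in Osmr at 4 to 10. Both motifs read the same on either strand and none of these matches overlapped. All 10 genes matched the promoter table, with 16 windows, and none of the windows of Lifr, Cntfr, Il6st, Stat3, Edn2, Ednrb or Fgf2 held either motif. Among all 32851 windows of that source 8.30% held TTCNNNGAA and 7.81% held TGANTCA. Counted by gene, 9.55% of 27025 genes held TTCNNNGAA and 8.97% held TGANTCA, beside 1 and 2 of the 10 genes. These counts are not in themselves a result about the 10 genes. A match describes the letters of the window and does not show binding.

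Among the ligands, Lif itself was scarce. Its counts were 13, 40, 53, 16 and 19 in LD-1 to LD-5 and 7, 22, 86, 5 and 15 in CTRL-1 to CTRL-5. Scaled to depth these were 0.727, 2.07, 2.51, 0.886 and 1.06 CPM in light damage, against 0.352, 1.42, 4.66, 0.317 and 1.03 CPM in control. The highest library was the control CTRL-3, next came LD-3, and the lowest values were those of CTRL-4 and CTRL-1, so the controls enclosed the whole light damage range. Lif averaged 1.45 ± 0.790 CPM in light-damaged retina, against 1.56 ± 1.80 CPM in control retina (± SD, n = 5 per group). Its log2 fold change was -0.10 with a 95% interval of -1.75 to 1.54 (SE 0.73, edgeR adjusted p = 0.941). An interval that wide does not show that the groups are alike. Without CTRL-3 the log2 fold change was 0.94 (edgeR adjusted p = 0.238), and without LD-1 and LD-2 it was -0.06.

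Edn2, which encodes endothelin-2, was at 19.7, 34.4, 60.3, 26.3 and 28.3 CPM in LD-1 to LD-5 and at 13.3, 28.4, 56.0, 17.0 and 14.9 CPM in CTRL-1 to CTRL-5. LD-3 and CTRL-3 stood well above the rest of their groups, and each group otherwise lay below 35 CPM. Edn2 averaged 33.8 ± 15.7 CPM in light-damaged retina, against 25.9 ± 17.9 CPM in control retina (± SD, n = 5 per group), a log2 fold change of 0.38 (SE 0.48, 95% interval -0.73 to 1.50, edgeR adjusted p = 0.639). Without CTRL-3 it was 0.88, without LD-3 it was 0.07, and without LD-1 and LD-2 it was 0.56, none of them called.

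Fgf2, the gene of basic fibroblast growth factor, had 30.0, 65.7, 98.5, 46.4 and 46.5 CPM in LD-1 to LD-5, against 34.0, 71.3, 119, 27.3 and 27.3 CPM in CTRL-1 to CTRL-5. The order of libraries was close to that of Edn2, with CTRL-3 and LD-3 at the top, and the groups overlapped throughout. Its means were 57.4 ± 26.2 CPM in light-damaged retina, against 55.8 ± 39.9 CPM in control retina (± SD, n = 5 per group). The log2 fold change of Fgf2 was 0.04 (SE 0.52, 95% interval -1.15 to 1.23, edgeR adjusted p = 0.970), and 0.52 without CTRL-3. In the mouse annotation used for lengths, exons of Fgf2 overlap those of Gm43439 on the same strand and of Nudt6 on the opposite one, and exons of Stat3 overlap those of Stat5a likewise. The strand used in counting is not known, so reads from such stretches cannot be told apart. Nudt6 averaged 2.89 ± 0.546 CPM in light-damaged retina, against 3.02 ± 1.92 CPM in control retina (± SD, n = 5 per group).

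**Figure D1:**
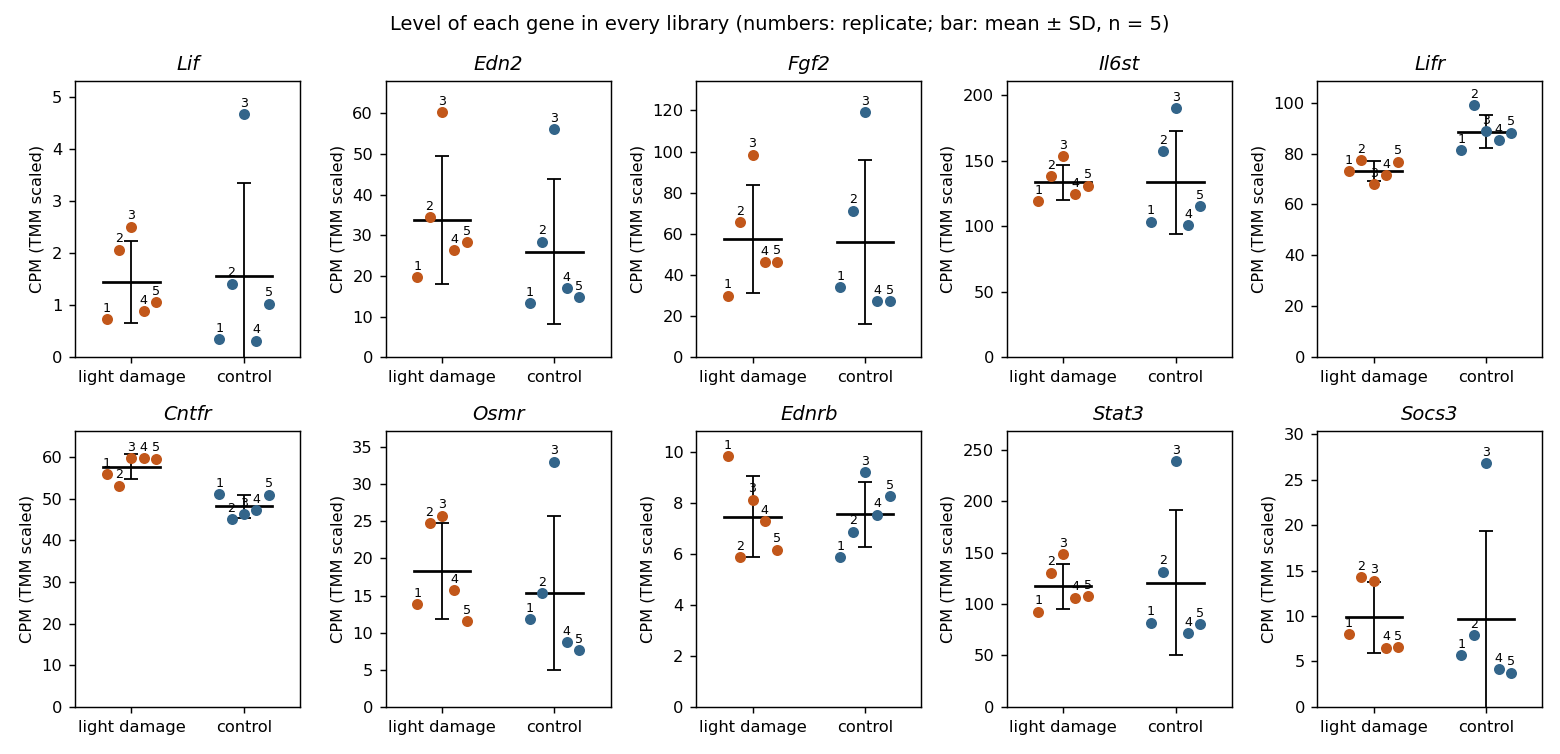
Levels of the 10 genes in CPM (y axis, TMM scaled) in the light damage and control libraries (x axis), 1 point per library with its replicate number and a bar for the mean ± SD (n = 5), cut at 0 where the SD reaches below it. Lifr is lower and Cntfr higher in every light damage library than in every control, and replicate 3 of the controls is the highest point for Lif, Fgf2, Il6st, Osmr, Stat3 and Socs3.

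The receptors behaved unlike each other. Lifr, the LIF receptor subunit that pairs with gp130, had 73.0, 77.4, 67.9, 71.4 and 76.9 CPM in LD-1 to LD-5 and 81.4, 98.9, 88.9, 85.4 and 88.2 CPM in CTRL-1 to CTRL-5. The highest light damage library lay below the lowest control. Over all genes tested 9.79% were separated in this way, 4.31% with light damage above and 5.48% with light damage below. Lifr averaged 73.3 ± 3.96 CPM in light-damaged retina, against 88.6 ± 6.48 CPM in control retina (± SD, n = 5 per group), a log2 fold change of -0.27 (SE 0.06, 95% interval -0.40 to -0.14, edgeR adjusted p = 0.00962). The call held without any single library, with adjusted p up to 0.0383 in edgeR. Without LD-1 and LD-2 the size was similar, -0.30, but the adjusted p was 0.0593 by edgeR, and without LD-3 and CTRL-3 it was -0.24 with an adjusted p of 0.0588.

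Cntfr, the ligand-binding subunit for ciliary neurotrophic factor, went the other way. It had 55.9, 53.1, 59.8, 59.6 and 59.6 CPM in LD-1 to LD-5 and 51.1, 45.0, 46.3, 47.3 and 51.0 CPM in CTRL-1 to CTRL-5. Every light damage library was above every control. Cntfr averaged 57.6 ± 2.99 CPM in light-damaged retina, against 48.1 ± 2.78 CPM in control retina (± SD, n = 5 per group), a log2 fold change of 0.26 (SE 0.06, 95% interval 0.13 to 0.38, edgeR adjusted p = 0.0114). The call held without any single library and without LD-1 and LD-2 (log2 fold change 0.31, edgeR adjusted p = 0.0373). It was lost when LD-3 and CTRL-3 were both left out (0.23, edgeR adjusted p = 0.0689).

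Formed within a library, the ratio of Lifr counts to Cntfr counts does not depend on scaling. It was 1.30, 1.46, 1.13, 1.20 and 1.29 in LD-1 to LD-5, against 1.59, 2.197, 1.92, 1.81 and 1.73 in CTRL-1 to CTRL-5. Light damage averaged 1.28 ± 0.122 and control 1.85 ± 0.228 (± SD, n = 5 per group), with no overlap. This ratio was formed after both genes had been seen to move, so it is given with no test. Across the 10 libraries the log2 CPM of Lifr and Cntfr had a Pearson r of -0.92, and -0.67 once each group's mean was removed.

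Markers of Müller glia differed in the same comparison. Of the 14 listed, 6 rose and none fell, beside 5.32% called higher over all genes tested, and their summed level was 5885 to 8171 CPM in light damage and 4537 to 5911 CPM in control. With LD-1 and LD-2 left out, edgeR called 1 Müller marker higher, beside 0.782% of all genes tested in that fit. The median log2 fold change of the list was then 0.32, against 0.36 with all libraries. Of the 5 astrocyte markers 0 were called, 3 had positive and 2 negative log2 fold changes, and the median was 0.06. Of the 11 microglial markers 1 rose, and all 11 had positive log2 fold changes, with a median of 0.60 (0.65 without LD-1 and LD-2). Without LD-1 and LD-2, 0 of these 11 were called by edgeR. Their summed level was 66.8 to 149 CPM in light damage and 49.6 to 71.9 CPM in control. Of 12 rod markers only Sag rose (log2 fold change 0.29, not called without LD-1 and LD-2), while 9 of the 12 had negative values, with a median of -0.12. None of the negative ones was called. In bulk tissue a change in the number of cells of a type and a change of RNA per cell cannot be told apart. The part of any of these cell types in the fall of Lifr and the rise of Cntfr was not tested.

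Il6st, which encodes gp130, was the steadiest of the genes that followed Stat3. It lay between 119 and 154 CPM in light damage and between 101 and 190 CPM in control, with CTRL-3 highest. The means were 133 ± 13.5 CPM in light-damaged retina, against 133 ± 39.1 CPM in control retina (± SD, n = 5 per group), and the 95% interval of the log2 fold change ran from -0.42 to 0.42. Osmr, the oncostatin M receptor subunit that also pairs with gp130, ranged from 11.6 to 25.7 CPM in light damage and from 7.61 to 33.03 CPM in control. Its log2 fold change was 0.25 (95% interval -0.77 to 1.28, edgeR adjusted p = 0.745), and 0.75 without CTRL-3. Ednrb, the endothelin receptor of retinal glia, ranged from 5.89 to 9.84 CPM in light damage and from 5.88 to 9.22 CPM in control. Its 95% interval, -0.34 to 0.31, was among the narrower ones.

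Stat3 had 92.6, 131, 148, 106 and 108 CPM in LD-1 to LD-5, against 81.8, 131, 239, 71.5 and 80.5 CPM in CTRL-1 to CTRL-5. CTRL-3 alone was above every light damage library, while CTRL-1, CTRL-4 and CTRL-5 were below all of them. Stat3 averaged 117 ± 22.1 CPM in light-damaged retina, against 121 ± 70.2 CPM in control retina (± SD, n = 5 per group). Its log2 fold change was -0.05 (SE 0.36, 95% interval -0.86 to 0.77, edgeR adjusted p = 0.948), and 0.36 without CTRL-3 (edgeR adjusted p = 0.326).

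Socs3, the feedback inhibitor whose window holds the STAT motif shown above, had 8.05, 14.3, 13.9, 6.54 and 6.57 CPM in LD-1 to LD-5 and 5.68, 7.91, 26.8, 4.12 and 3.77 CPM in CTRL-1 to CTRL-5. CTRL-3 was again the highest, and the other 4 controls lay within or below the light damage range. The means were 9.88 ± 3.92 CPM in light-damaged retina, against 9.66 ± 9.72 CPM in control retina (± SD, n = 5 per group), with a log2 fold change of 0.03 (SE 0.60, 95% interval -1.35 to 1.403, edgeR adjusted p = 0.984). Without CTRL-3 the log2 fold change was 0.88 (edgeR adjusted p = 0.122), and without LD-1 and LD-2 it was -0.10. The ratio of Socs3 counts to Stat3 counts was 0.0825 ± 0.0212 in light damage and 0.0692 ± 0.0252 in control (± SD, n = 5 per group). It was highest in CTRL-3, at 0.112, and LD-2, at 0.11, and lowest in CTRL-5, at 0.0468.

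**Figure D2:**
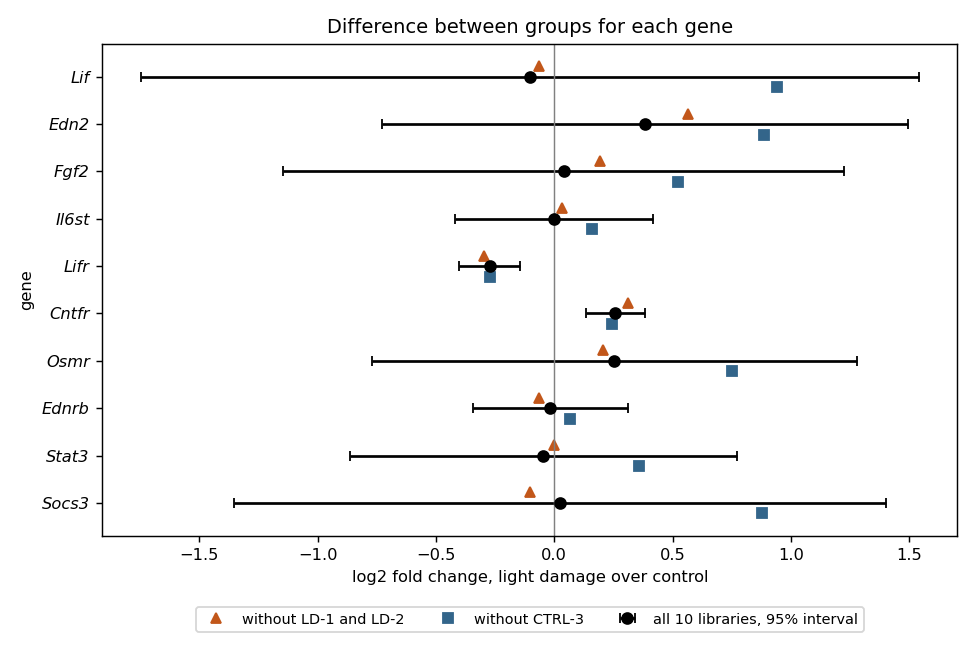
Log2 fold change, light damage over control (x axis), for each gene (y axis). Black points with 95% intervals use all 10 libraries, triangles leave out LD-1 and LD-2, and squares leave out CTRL-3. The intervals of Lifr (-0.40 to -0.14) and Cntfr (0.13 to 0.38) lie on one side of 0, and leaving out CTRL-3 moves Lif to 0.94 and Socs3 to 0.88.

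Levels were compared between genes as CPM per kilobase of the longest annotated transcript. In light damage Cntfr was highest, at 28.9 ± 1.50 CPM per kilobase, followed by Edn2 (23.1 ± 10.7), Stat3 (19.4 ± 3.66) and Il6st (15.4 ± 1.55). Fgf2 (9.61 ± 4.39) and Lifr (7.59 ± 0.410) came next, then Socs3 (3.87 ± 1.54), Osmr (3.34 ± 1.18), Ednrb (1.82 ± 0.390) and Lif (0.360 ± 0.196), all SD with n = 5. In control the order was the same, except that Stat3 (20.01 ± 11.6 CPM per kilobase) stood above Edn2 (17.7 ± 12.2). Neighbours in the control order lay closer than the larger of their SDs, apart from Lifr above Socs3 and Ednrb above Lif. In light damage this was so of Cntfr and Edn2, Edn2 and Stat3, Fgf2 and Lifr, and Socs3 and Osmr.

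The spread between libraries of 1 group was wide for 6 of these genes. Lif differed 3.45-fold between its highest and lowest light damage library and 14.7-fold between controls. For Socs3 these ranges were 2.19-fold in light damage and 7.11-fold in control, for Fgf2 3.29-fold and 4.36-fold, for Edn2 3.05-fold and 4.22-fold, and for Stat3 1.60-fold and 3.34-fold. Lifr and Cntfr stayed within 1.14-fold and 1.12-fold among light damage libraries, and within 1.22-fold and 1.14-fold among controls. The SD of log2 CPM around the group means was 1.13 for Lif, 0.89 for Socs3, 0.81 for Fgf2, 0.74 for Edn2, 0.69 for Osmr and 0.54 for Stat3, against a median of 0.16 over all genes tested. For Lifr and Cntfr it was 0.09 and 0.08. Il6st and Ednrb lay between, with SDs of 0.30 and 0.27. Il6st ranged 1.29-fold in light damage and 1.89-fold in control, and Ednrb 1.67-fold in light damage and 1.57-fold in control. The counts of Lif are low, so part of its spread is counting error.

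The 7 genes Lif, Il6st, Osmr, Stat3, Socs3, Edn2 and Fgf2 varied together from library to library. Over their 21 pairs the Pearson r of log2 CPM across the 10 libraries lay between 0.83 and 0.97, with a median of 0.91. With each group's mean removed the median was 0.92, and without LD-3 and CTRL-3 it was 0.83, with r between 0.61 and 0.96. These 7 were grouped after their values were seen, the libraries share 1 scaling, and r is given as a description. The 24 pairs that involve Lifr, Cntfr or Ednrb had r between -0.92 and 0.26. Of the 16851 other genes tested, 58, or 0.344%, had r over 0.9 with Stat3, and 6 of them are among the genes described here.

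**Figure D3:**
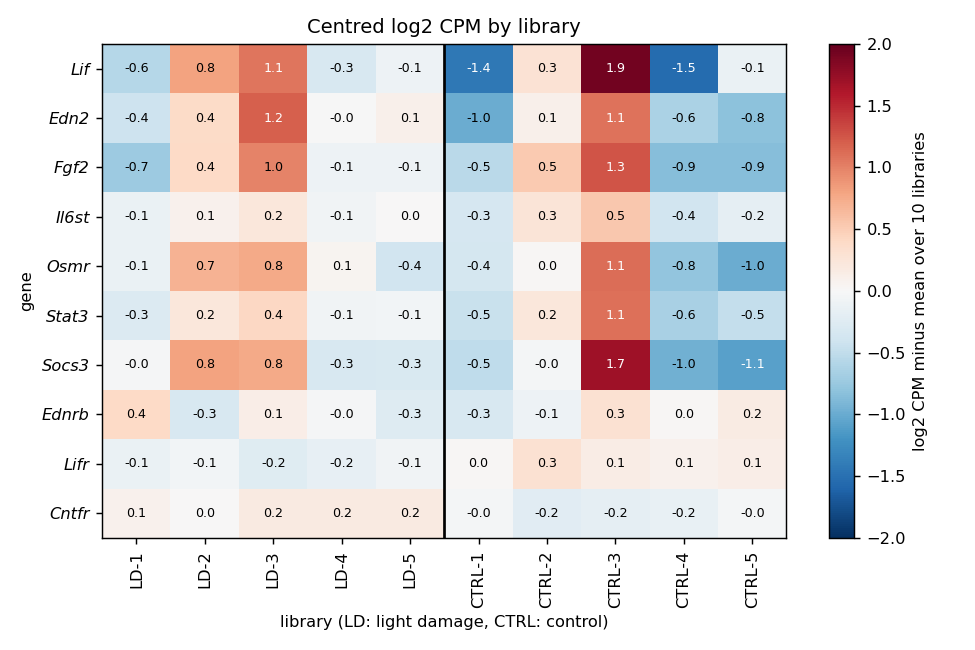
Log2 CPM of each gene (y axis) in each library (x axis), minus its mean over the 10 libraries, as colour and number, with a line between light damage and control. CTRL-3 and LD-3 are above the mean in every row from Lif to Socs3, while Lifr is below its mean in all light damage libraries and Cntfr above it.

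CTRL-3 exceeded the mean of the other 4 controls by 5.996-fold for Lif, 4.99-fold for Socs3, 3.05-fold for Edn2, 3.03-fold for Osmr, 2.98-fold for Fgf2 and 2.62-fold for Stat3. LD-3 exceeded the mean of the other 4 light damage libraries by 2.22-fold for Edn2, 2.12-fold for Lif, 2.09-fold for Fgf2, 1.57-fold for Socs3, 1.56-fold for Osmr and 1.36-fold for Stat3. Of all genes tested 13.1% had their highest level in CTRL-3 and 11.6% in LD-3. Other measures moved with these libraries. The summed rod markers were lowest of their group in LD-3, at 60330 CPM, and in CTRL-3, at 64580 CPM. The summed Müller markers were highest of all libraries in LD-3, at 8171 CPM, but lowest of all in CTRL-3, at 4537 CPM. Glul, the largest of these markers, was at 1049 CPM in CTRL-3 against 1932 to 2487 CPM in the other controls. Rlbp1, Dkk3, Apoe, Hes1, Car14 and Abca8a were also at their lowest of all libraries in CTRL-3. Clu, Crym and Vim were there at their highest among controls. The remaining Müller markers, Slc1a3, Aqp4, Sox9 and Kcnj10, lay within the range of the other controls. Of the 14 Müller markers 8 were highest in LD-3 and 1, Vim, in CTRL-3, at 358 CPM. Of the microglial markers 10 of 11 were highest in LD-3, where their sum was 149 CPM against 63.8 CPM in CTRL-3. The summed astrocyte markers were highest in CTRL-3, at 211 CPM, but 162 CPM of that sum was Gfap, which is also listed among the STAT3 targets. Of the 5 astrocyte markers 1 was highest in CTRL-3, and S100b was at its lowest there, at 6.56 CPM. Aldh1l1 was at 27.01 CPM in CTRL-3, against 12.72 to 16.59 CPM in the other controls. Pax2 and Pdgfra lay within the range of the other controls. The part of these cell types in the levels of the 7 genes was not tested.

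For each gene, the 3 others of at least 1 CPM whose log2 CPM followed it most closely over the 10 libraries were noted. Some of them are not named here, among them the closest to Osmr. None of those left out is in the pathway lists described below. Stat3 was followed by Lrrc2 (r = 0.98), Il6st (0.97) and Btc (0.97). Socs3 and Osmr followed each other (0.97), and Cebpd, a STAT3 target that encodes a transcription factor, was near Osmr (0.98), Socs3 (0.97) and Fgf2 (0.96). Lif was followed by Bend4 (0.96), Il6st (0.94) and Akt2 (0.94), and Edn2 by Cryzl2, Nfkb2 and Naa35 (each about 0.96). Fgf2 had Gbp5 (0.96) and Stat3 (0.96) beside Cebpd. Nearest to Lifr were Chd7 (0.99), Tnrc6b (0.98) and Camkk2 (0.98), and to Cntfr Dapk3, Vdac1 and Enoph1 (each 0.97). Ednrb had no partner above 0.89, which was Sgms2. Of the other genes tested 1.4% had r over 0.9 with Lifr and 0.522% with Cntfr, against 0.344% with Stat3. Without LD-1 and LD-2 the r of all noted pairs, named or not, lay between 0.80 and 0.99. With LD-3 and CTRL-3 left out instead, it lay between 0.83 and 0.99.

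The other genes of the pathways came from 8 lists written from textbook knowledge. Of 65 genes listed 61 were in the table and 57 were tested. Of these 2 rose and 2 fell, or 7.02% against 13.2% of all genes tested. The median log2 fold change was 0.06. Without LD-1 and LD-2, 1 of these genes was called, beside 2.34% of all genes tested in that fit.

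Beyond the 10 genes, the other ligands and partner receptors of the gp130 family gave no call. Of 7 other ligands 3 were in the table, and Cntf, at 1 to 7 counts per library, did not pass the filter. Ctf1, cardiotrophin, averaged 3.54 ± 0.610 CPM in light-damaged retina, against 3.07 ± 0.322 CPM in control retina (± SD, n = 5 per group). Clcf1, a ligand of the CNTF receptor, averaged 4.03 ± 0.8289 CPM in light-damaged retina, against 5.01 ± 2.06 CPM in control retina (± SD, n = 5 per group), with CTRL-3 highest at 8.57 CPM. Il6ra, the interleukin-6 receptor subunit, had a log2 fold change of 0.38 (edgeR adjusted p = 0.427). By edgeR, 0 of the 2 ligands and 3 partner receptors tested were called, 0 had an unadjusted p under 0.05, and DESeq2 and limma-voom called 0.

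Among 7 JAK kinases and other STAT factors 1 rose, beside 5.32% called higher over all genes tested. Stat5b, a STAT factor of growth hormone and cytokine signaling, averaged 73.6 ± 4.05 CPM in light-damaged retina, against 61.7 ± 8.68 CPM in control retina (± SD, n = 5 per group), a log2 fold change of 0.26 (SE 0.08, edgeR adjusted p = 0.0485). Leaving out 1 library at a time ended that call in 8 of 10 fits, with adjusted p up to 0.125 by edgeR. Of 10 inhibitors of the pathway 1 fell, beside 7.85% called lower over all genes tested. Socs7 averaged 180 ± 7.86 CPM in light-damaged retina, against 213 ± 21.7 CPM in control retina (± SD, n = 5 per group), a log2 fold change of -0.25 (SE 0.07, edgeR adjusted p = 0.0269), lost in 7 of the 10 such fits.

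No target of STAT3 passed the test. By edgeR 0 of 15 tested were called, 0 had an unadjusted p under 0.05, and DESeq2 and limma-voom called 0. Cebpb, a transcription factor, and Pim1, a survival kinase, had the lowest p, with log2 fold changes of 0.53 and 0.27 (adjusted p = 0.247 and 0.215 by edgeR). Of the 15 targets 6 were highest in CTRL-3 and 3 in LD-3. Their median r with Stat3 over the 10 libraries was 0.61, against 0.0046 over all genes tested.

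The endothelin system outside Edn2 and Ednrb had 5 genes tested and 0 called by edgeR, with 1 at an unadjusted p under 0.05 and 0 called by DESeq2 or limma-voom. Ece1, an endothelin converting enzyme, averaged 58.1 ± 2.83 CPM in light-damaged retina, against 52.3 ± 4.32 CPM in control retina (± SD, n = 5 per group), a log2 fold change of 0.15 (edgeR adjusted p = 0.123). Its relative Ece2 had a log2 fold change of -0.44 (edgeR adjusted p = 0.174).

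Of the 10 genes of FGF feedback tested 1 was called higher and 1 lower, beside 5.32% and 7.85% over all genes tested. That count is not in itself a result about FGF genes. Etv5, a transcription factor induced by FGF signaling, was at 55.1, 55.8, 54.7, 49.6 and 54.3 CPM in LD-1 to LD-5, against 39.8, 40.7, 40.1, 31.8 and 42.6 CPM in CTRL-1 to CTRL-5. All light damage libraries were above all controls, and its log2 fold change was 0.47 (SE 0.07, edgeR adjusted p = 0.0018). It was called without any single library and without LD-1 and LD-2. Spry4, a feedback inhibitor of FGF signaling, was at 12.4, 13.03, 13.2, 10.5 and 9.13 CPM in LD-1 to LD-5, against 14.3, 20.5, 16.9, 14.6 and 14.2 CPM in CTRL-1 to CTRL-5. It fell without overlap, by 0.47 on the log2 scale (SE 0.12, edgeR adjusted p = 0.0228). Its log2 fold change without LD-1 and LD-2 was -0.55, no longer called (edgeR adjusted p = 0.0669). The call of Spry4 was also lost without LD-4 (edgeR adjusted p = 0.0538) and without CTRL-2 (edgeR adjusted p = 0.0554). The other 8 of the 10 genes of FGF feedback were not called.

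Of 5 FGF ligands and receptors tested 0 were called by edgeR, 2 had an unadjusted p under 0.05, DESeq2 called 2 and limma-voom 0. Fgfr1 averaged 44.97 ± 7.54 CPM in light-damaged retina, against 35.1 ± 4.16 CPM in control retina (± SD, n = 5 per group), a log2 fold change of 0.36 (edgeR adjusted p = 0.0529 and 0.0199 by DESeq2). Fgfr2 had 10.7 and 8.17 CPM in LD-1 and LD-2, the libraries with lens genes, and 1.56 to 1.73 CPM in LD-3 to LD-5, against 0.617 to 2.44 CPM in control. Its log2 fold change was 1.84 with all libraries and 0.31 without LD-1 and LD-2. The part of lens tissue in that difference was not tested.

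**Figure D4:**
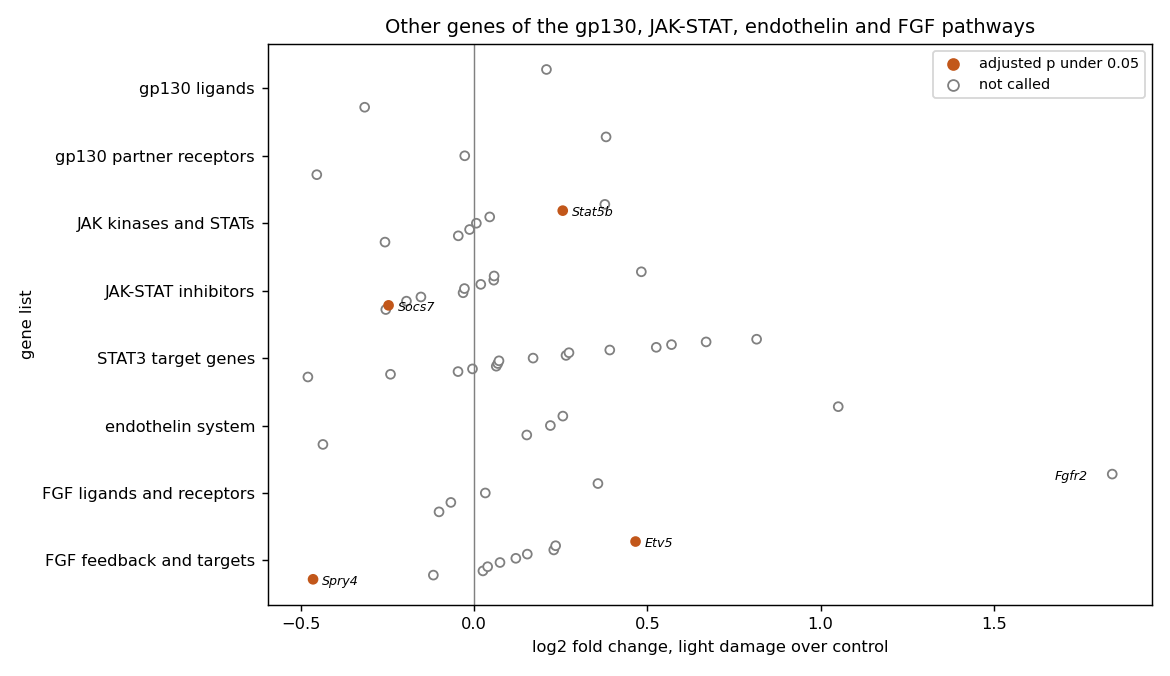
Log2 fold change, light damage over control (x axis), of the 57 tested genes of 8 pathway lists (y axis), 1 point per gene, filled where the adjusted p by edgeR was under 0.05. The filled points are Stat5b, Socs7, Etv5 and Spry4, and the farthest point is the uncalled Fgfr2 at 1.84.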

How the data were processed

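The authors deposited whole-number counts per gene for 10 retinal libraries, 5 of light damage and 5 control, with groups and replicate numbers taken from the titles. Per the submitters' processing notes the tools were RSEM 1.3.1, Bowtie2 and DESeq2 1.4.5, on GRCm39, with no step named. Whether RSEM estimates were rounded, and whether strand was kept, is not known. All libraries carry the same batch entry in the labels. Symbols came from an annotation table by Ensembl identifier, with 19892 of 19999 matched. Transcript lengths came from GENCODE M21.

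The fit used edgeR 4.0.16 under R 4.3.3 (filterByExpr, TMM, robust quasi-likelihood test, Benjamini-Hochberg over 16852 genes). Intervals and SEs came from that test. Log2 CPM used a prior count of 2. The kept genes held 99.804% to 99.924% of a library's counts. Alternatives were DESeq2 1.42.0, limma-voom (limma 3.58.1), other scalings and filters, a replicate block and left-out libraries. Leaving out LD-3 with CTRL-3 was added after seeing the data. The fit was tested on simulated counts. No 2 libraries of the 45 pairs held identical values, and chi-square per degree of freedom was at least 5.76.

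The genes and lists were chosen with earlier results of these data known. Named beyond the 10 are, per list, called genes or otherwise the 2 with the lowest p, and genes among the 3 closest in pattern. Cntf, named for its low counts, and Nudt6 and Gm43439, for their overlap, fall outside that rule. So do the markers Sag, Gfap, S100b, Aldh1l1, Pax2 and Pdgfra and those of Müller glia, chosen after their values were seen. A gene that the rule names is not reported here. Figures used Python 3.11.15 and matplotlib 3.10.9.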

Additional observations from a re-analysis of the deposited data

Results flagged for a closer look

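Within groups of 5, some libraries lay farther from their nearest neighbour, relative to the whole range, than Dixon's 95% limit of 0.71. This held in 5 of 48 groups examined, where chance gives about 1 in 20 for independent, normally distributed values. The values were CPM and several genes varied together, so the 2 figures do not make a test. The flags of CTRL-3 depend on the scale. On log2 CPM Lif was at 2.26 in CTRL-3, the other controls at -1.22 to 0.61, a smaller gap relative to the range. Socs3 likewise was at 4.75, the other controls at 1.96 to 3.00. CTRL-3 had 4.66 CPM of Lif, the other controls at most 1.42. CTRL-3 had 26.8 CPM of Socs3, the other controls at most 7.91. CTRL-3 had 8.57 CPM of Clcf1, the other controls at most 5.02. Etv5 was lowest in LD-4, at 49.6 CPM with the other light damage libraries at 54.3 or more, and in CTRL-4, at 31.8 CPM with the other controls at 39.8 or more.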

How the results depend on the processing

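Over all genes, 2219 were called, 896 higher and 1323 lower. Without LD-1 and LD-2 these were 403, 135 and 268, with library totals alone in addition 235, 114 and 121, and without LD-3 and CTRL-3 803, 280 and 523. Leaving out 1 library at a time gave 1127 to 2991 calls, 399 to 1347 higher and 723 to 1644 lower. With library totals alone 1147 were higher and 912 lower.

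Of the 10 genes 2 were called with all libraries and 2 without any single one. Without LD-1 and LD-2, and likewise with library totals alone in addition, 1 was called. Without LD-3 and CTRL-3, 0 were called by edgeR and 3 had an unadjusted p under 0.05. Lifr lost its call at log2 fold changes of -0.30, -0.26 and -0.24 in these 3 fits, and Cntfr lost it in the last at 0.23. Pathway calls, 4 with all libraries, were 2 with library totals alone, 1 in each of those 3 fits, and 2 to 5 with 1 library left out.

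Uncalled genes near 0 changed sign. Lif was at 0.44 by limma-voom and 0.64 without LD-3 and CTRL-3. Il6st was at 0.00014 by DESeq2, 0.0400 by limma-voom, 0.00016 with RLE factors, 0.0168 with library totals alone, 0.0096 with no filter, 0.0340 without LD-1 and LD-2, 0.0586 with totals in addition, and 0.11 without LD-3 and CTRL-3. For Stat3 these were 0.0937 by limma-voom, and 0.0012, 0.0172 and 0.26 in the last 3 fits. Socs3 was at -0.10 and -0.0922 without LD-1 and LD-2, scaled or by totals. Ednrb was at 0.0052 with library totals alone and 0.0344 without LD-3 and CTRL-3. Leaving out 1 library gave -0.40 to 0.94 for Lif, -0.0804 to 0.16 for Il6st, -0.18 to 0.36 for Stat3, -0.17 to 0.88 for Socs3, -0.13 to 0.0667 for Ednrb and -0.25 to 0.52 for Fgf2. The upper ends are the fits without CTRL-3. The cause was not tested.

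Same-numbered libraries of the groups had correlations of their deviations between 0.0522 and 0.316, over 0.1 for 1 of 5 numbers, so the numbers were not taken as pairs. With the replicate number as a block, 3285 genes were called, 1431 of them higher. In it 7 pathway genes were called, and Edn2 was called at 0.48 (edgeR adjusted p = 0.00775). In that block fit Lif was at 0.17, Il6st at 0.0368 and Stat3 at 0.0854. Among light damage libraries the best partner was the control of the same number only for LD-3 and LD-4. Among controls it was the light damage library of the same number for CTRL-1, CTRL-2 and CTRL-3.

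The low counts of Lif, 5 to 86 per library, limit its precision.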
